A study of Mus musculus with 13 samples.

Results

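The mitochondrial respiratory chain is built from subunits encoded by 2 genomes, and its genes were followed across 13 RNA-seq libraries of mouse lung. All genes in the tables whose symbol starts with mt-, with Ndufa, Ndufb, Ndufc, Ndufs or Ndufv (Ndufaf genes left out), with Uqcr, with Cox4 to Cox8 or with Atp5, together with Sdha, Sdhb, Sdhc and Sdhd, were taken as members, 100 of the 20270 genes in all. Of these, 13 are carried by the mitochondrial DNA and 87 by nuclear chromosomes. The nuclear members comprise 38 genes of complex I, 4 of complex II, 8 of complex III, 20 of complex IV and 17 of complex V. Ndufa4 and its paralog Ndufa4l2 were counted with complex IV, where the Ndufa4 protein resides.

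Pulmonary fibrosis (PF) was induced by 1 oropharyngeal dose of bleomycin, a DNA-damaging antitumor antibiotic, at 1 U per kg, and the lower right lung lobe was collected after 14 days. The Control group (libraries 3, 21, 24 and 26) held wild-type mice given saline vehicle, WT bleomycin (libraries 4, 2, 5, 4-B2 and 7) held wild-type mice given bleomycin, and CB1R KO bleomycin (libraries 8, 9, 10 and 11) held Cnr1-/- mice given bleomycin. Libraries 4 and 4-B2 carry the same number, and whether they come from 1 mouse is not given. Wild-type mice were C57BL/6J males 13 weeks old, and Cnr1-/- mice, which lack cannabinoid receptor 1 in every cell, were on the same background. The age of the Cnr1-/- mice is not given separately, and Cnr1-/- mice without bleomycin are not analysed here, so that genotype is compared under bleomycin alone.

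The respiratory chain sits in the inner mitochondrial membrane. Complex I (NADH dehydrogenase) and complex II (succinate dehydrogenase) feed electrons to ubiquinone, complex III passes them to cytochrome c, complex IV (cytochrome c oxidase) hands them to oxygen, and complex V (ATP synthase) uses the resulting proton gradient to make ATP. Mitochondrial DNA supplies core subunits of complexes I, III, IV and V but none of complex II. Its genes are transcribed as long polycistronic RNAs that are cut into mRNAs. The remaining subunits are made in the cytosol from nuclear mRNAs and imported.

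The mRNA was selected with oligo(dT) beads, and 12 libraries held between 14615904 and 16662580 estimated counts, while CB1R KO bleomycin 11 held 53463884, or 3.33 times the median of the others. Markers of lung epithelium were abundant in every library, with a summed level of 115309 to 131211 TPM in Control, 63566 to 82089 TPM in WT bleomycin and 69836 to 85871 TPM in CB1R KO bleomycin, where TPM is the length-corrected abundance given in the tables. In these bulk libraries, fewer cells of a type and less RNA per cell cannot be told apart. Cnr1 itself stood at 0.403 to 1.05 TPM in Control, 0.848 to 1.85 TPM in WT bleomycin and 0.648 to 1.499 TPM in CB1R KO bleomycin, so that its level did not set the libraries labelled as knockout apart. After a filter on low counts, 97 members were among the 15315 genes tested. Cox5b-ps, Cox7b2 and Ndufb11b were left out, with 9.51, 2 and 1 estimated counts summed over all libraries.

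The mitochondrial mRNAs were the most abundant members in the lung. Averaged over the 13 libraries on the TPM scale, which corrects for transcript length, the 13 mt- genes filled ranks 1 to 13 among members. The order started with mt-Co1 (9138 TPM), mt-Co2 (7775 TPM) and mt-Atp8 (7384 TPM), and ended with mt-Nd5 (1644 TPM). The highest nuclear members were Cox4i1 (555 TPM), Cox6a1 (491 TPM), Atp5e (491 TPM) and Atp5b (461 TPM).

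Together the mt- genes took 3.28% ± 0.17 of the counts in Control (SD, n = 4), 2.7% ± 0.31 in WT bleomycin (n = 5) and 2.52% ± 0.78 in CB1R KO bleomycin (n = 4). A single library widened the knockout group, since CB1R KO bleomycin 11 stood at 1.37% and the remaining 3 libraries at 2.78% to 3.02%, with a mean of 2.91% ± 0.12. The Control libraries spanned 3.07% to 3.45% of counts, above all 9 bleomycin libraries. On the TPM scale they overlapped, since Control 21 (7.39%) lay below WT bleomycin 4 (7.57%), CB1R KO bleomycin 8 (7.89%) and CB1R KO bleomycin 9 (7.99%). The 87 nuclear members showed the opposite order, with 0.567% ± 0.025 of counts in Control, 0.632% ± 0.021 in WT bleomycin and 0.633% ± 0.066 in CB1R KO bleomycin. Without library 11, at 0.728%, the knockout mean was 0.601% ± 0.024. The shares sum over many genes and were not tested.

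**Figure D1:**
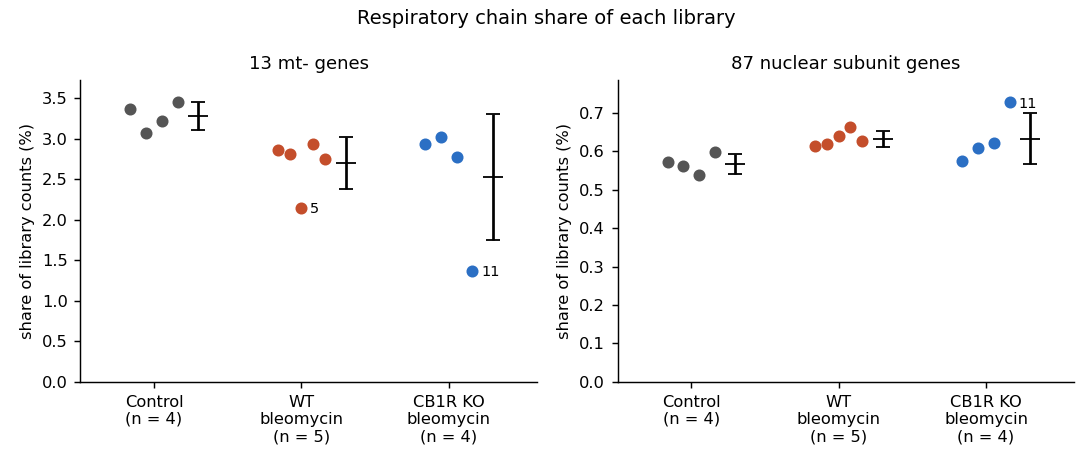
Share of library counts (%, y axis) in the 13 mt- genes (left) and the 87 nuclear members (right), with 1 point per library, and a bar for the mean ± SD of each group. The mt- share spans 3.07% to 3.45% in the 4 Control libraries and reaches 3.02% in CB1R KO bleomycin 9, the highest bleomycin library. It falls to 2.15% in WT bleomycin 5 and 1.37% in CB1R KO bleomycin 11, while the nuclear share of library 11 is the highest of all at 0.728%.

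After bleomycin in wild-type mice, all 13 mt- genes had a negative log2 fold change, with a median of -0.31, whereas 71 of the 84 nuclear members tested had a positive one, with a median of 0.21. Over all genes tested the median was -0.01. Across alternatives the sign turned for mt-Nd3 alone, whose value of -0.14 (SE 0.40, edgeR adjusted p = 0.794) became -0.49, and called, without Control 21, and 0.23, not called, in limma on log2(TPM + 1). Calls were made at an adjusted p under 0.05 in edgeR's quasi-likelihood test (Benjamini-Hochberg over all genes). By this rule bleomycin raised 38 members and lowered 9 of the 97 tested. The background in this comparison was 48.9% of all genes called, 25.0% higher and 23.9% lower, so that the members were called about as often (48.5%) as all genes. All of the members called higher were nuclear. Of the 9 members called lower, mt-Nd6 was the mitochondrial one and the other 8 were nuclear.

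mt-Nd6, a complex I subunit and the one protein encoded on the light strand of mitochondrial DNA, was called lower in both bleomycin groups in all 26 alternative fits as well. In Control it was counted at 562, 549, 561 and 578 CPM (counts scaled to the TMM-adjusted library total) in libraries 3, 21, 24 and 26. In WT bleomycin it stood at 424, 434, 381, 471 and 456 CPM in libraries 4, 2, 5, 4-B2 and 7, and in CB1R KO bleomycin at 446, 458, 389 and 301 CPM in libraries 8, 9, 10 and 11. Every bleomycin library was below every Control library. The log2 fold change was -0.38 (SE 0.10, edgeR adjusted p = 0.0069) in WT bleomycin against Control and -0.50 (SE 0.11, edgeR adjusted p = 0.0027) in CB1R KO bleomycin against Control. Both comparisons use the same Control libraries. Both calls also held without library 11, where the log2 fold changes were -0.37 and -0.38. Whether the counting used strand is not given, so that RNA of the opposite strand may be counted with mt-Nd6. The part of such RNA in these values was not tested.

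mt-Nd2, mt-Nd4 and mt-Nd4l, further complex I subunits, showed lower levels after bleomycin and a wide spread that came largely from library 11. mt-Nd2 stood at 1843, 1745, 1866 and 1960 CPM in Control, at 1192, 1191, 989, 1344 and 1170 CPM in WT bleomycin, and at 1344, 1444, 1286 and 361 CPM in CB1R KO bleomycin, in the same library order. The groups with and without bleomycin did not overlap. With all libraries the log2 fold changes from Control were -0.65 (SE 0.27, edgeR adjusted p = 0.0564) in wild-type and -0.74 (SE 0.29, edgeR adjusted p = 0.0565) in knockout mice. Without library 11 they were -0.65 (SE 0.08, edgeR adjusted p = 1.97e-05) and -0.44 (SE 0.09, edgeR adjusted p = 0.0029). The shift in wild-type mice was thus the same and its error smaller, since library 11 entered the shared estimate of spread.

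mt-Nd4l stood at 480, 457, 482 and 490 CPM in Control, at 343, 345, 317, 344 and 341 CPM in WT bleomycin, and at 364.5, 373, 329 and 103 CPM in CB1R KO bleomycin. Its difference from Control was called in the knockout group (log2 fold change -0.71, SE 0.27, edgeR adjusted p = 0.0499) and not in the wild-type group (-0.50, SE 0.25, edgeR adjusted p = 0.113), although the 5 wild-type libraries lay closer together. The call in the knockout group passed in 7 of 26 alternatives. Without library 11 both groups were called, at -0.42 and -0.49.

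Without library 11, 52 members were called higher and 14 lower in WT bleomycin against Control, where 50.2% of all genes were called, 26.1% higher and 24.1% lower. Leaving it out raised the number of mt- genes called lower from 1 to 6 in WT bleomycin against Control, and from 2 to 5 in CB1R KO bleomycin against Control. In the wild-type comparison these were mt-Nd2 (log2 fold change -0.65), mt-Nd4 (-0.47), mt-Nd4l (-0.49), mt-Nd5 (-0.37), mt-Nd6 (-0.37) and mt-Cytb (-0.29), the subunit of complex III. In the knockout comparison they were mt-Nd2 (-0.44), mt-Nd4 (-0.32), mt-Nd4l (-0.42), mt-Nd5 (-0.32) and mt-Nd6 (-0.38). In the latter fit 12.4% of all genes were called lower. When WT bleomycin 5 was left out as well, an alternative chosen after its values were seen, 8 and 6 mt- genes were called lower, where 22.7% and 12.3% of all genes were, and the further ones were mt-Atp6 (-0.16) and mt-Atp8 (-0.18) in the wild-type and mt-Cytb in the knockout comparison. mt-Co1, mt-Co2 and mt-Co3, the mt- subunits of complex IV, were not called against Control by edgeR in either comparison, with or without library 11. DESeq2 fitted on WT bleomycin and Control alone called mt-Co1 (-0.19, DESeq2 adjusted p = 0.0266).

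The mt- genes therefore did not move by 1 common factor, and ratios within a library show this without any scaling between libraries. Relative to mt-Co1 in the same library, mt-Nd2 counts stood at 19.0% to 19.9% in Control, 13.5% to 14.9% in WT bleomycin and 15.0% to 16.03% in CB1R KO bleomycin libraries 8 to 10, with no overlap between Control and bleomycin. mt-Nd4 gave 33.0% to 35.5%, 26.5% to 29.6% and 27.6% to 30.7%. mt-Co3, by contrast, gave 28.0% to 29.5%, 28.7% to 30.8% and 29.8% to 31.5%. Its knockout range lay above that of Control, and its WT bleomycin range overlapped both. mt-Nd1 gave 23.0% to 23.4%, 21.6% to 24.4% and 21.8% to 23.0%, and these ranges overlapped or met. In library 11 the same ratios were 7.63% for mt-Nd2, 9.96% for mt-Nd4, 28.6% for mt-Co3 and 20.7% for mt-Nd1. These ratios were chosen after their values were seen and carry no test.

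The order of the genes along the mitochondrial DNA shows where single libraries departed from their group. CB1R KO bleomycin 11, WT bleomycin 5 and Control 21 were each the lowest of their group for 13 of 13 genes, by unlike amounts. CB1R KO bleomycin 11 was low unevenly, with mt-Nd4 at 17.1%, mt-Nd2 at 26.9% and mt-Nd4l at 28.2% of the median of the other knockout libraries, against 76.7% for mt-Co2 and 67.5% for mt-Nd6. WT bleomycin 5 was lowest over a run of adjacent genes, mt-Co2 (52.7% of the median of the other wild-type bleomycin libraries), mt-Atp8 (57.4%) and mt-Atp6 (53.5%), with mt-Nd3 at 68.4% and the others at 78.2% to 92.4%. Control 21 stood furthest from its group in mt-Nd3, with 51.6 CPM against 350 to 409 CPM in the other Control libraries, or 13.5%, and its other mt- genes stood at 84.7% to 97.7%.

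**Figure D2:**
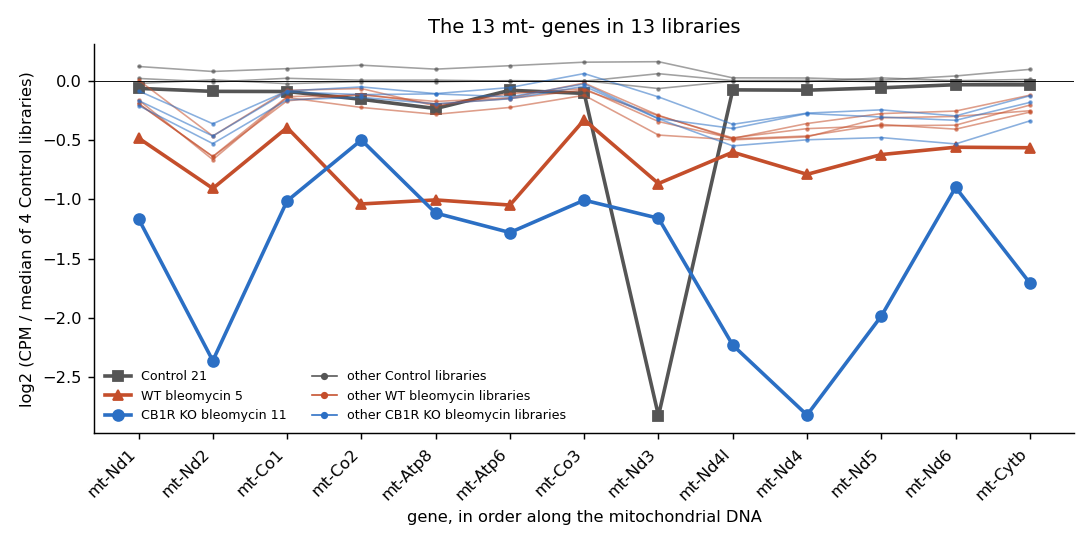
Level of each mt- gene in each library, as log2 of CPM over the median of the 4 Control libraries (y axis), with genes in their order along the mitochondrial DNA (x axis), and 1 line per library. Thick lines mark CB1R KO bleomycin 11, lowest at mt-Nd4 (472 CPM) and mt-Nd2 (361 CPM), WT bleomycin 5, lowest from mt-Co2 to mt-Atp6, and Control 21, whose lowest point is mt-Nd3 (51.6 CPM).

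Neighbouring mitochondrial genes share bases, so that their estimated counts are not fully separate measurements. mt-Atp8 (chrM:7766-7969, plus strand) and mt-Atp6 (chrM:7927-8607, plus strand) share 43 bases in the GRCm38 annotation, 21.1% of the length of mt-Atp8. The shared stretch, chrM:7927-7969, is shown because the 2 complex V genes it belongs to were low together in WT bleomycin 5.
mt-Atp8/mt-Atp6: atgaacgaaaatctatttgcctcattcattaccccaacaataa
mt-Nd4l (chrM:9877-10173) and mt-Nd4 (chrM:10167-11544) share 7 bases on the plus strand. mt-Nd6 (chrM:13552-14070, minus strand) overlaps mt-Nd5 (chrM:11742-13565, plus strand) by 14 bases on opposite strands, and whether the counting used strand is not given in the sources used here.

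Among the nuclear members of complex I, 14 of 37 tested were called higher and 1 lower in WT bleomycin than in Control, with a median log2 fold change of 0.21. Over all genes 25.0% were called higher and 23.9% lower. The largest increase was that of Ndufb1, an accessory subunit of the membrane arm. It stood at 50.7, 45.8, 51.4 and 52.4 TPM in Control, at 82.2, 80.6, 73.0, 76.5 and 73.6 TPM in WT bleomycin, and at 70.4, 67.0, 75.4 and 92.5 TPM in CB1R KO bleomycin. Control libraries lay below all bleomycin libraries, and the log2 fold changes were 0.54 (SE 0.09, edgeR adjusted p = 0.0002) in wild-type and 0.52 (SE 0.09, edgeR adjusted p = 0.0007) in knockout mice.

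Ndufa11, an accessory subunit of the membrane arm, rose by 0.50 on the log2 scale (SE 0.08), and Ndufs8, which carries iron-sulfur clusters, by 0.34 (SE 0.07). The remaining complex I members called higher in wild-type mice were Ndufa1, Ndufa2, Ndufa3, Ndufa8, Ndufa13, Ndufab1, Ndufb6, Ndufb8, Ndufc1, Ndufs6 and Ndufv2, with log2 fold changes between 0.21 and 0.35. Of these, Ndufc1 passed in 6 of 28 alternatives and Ndufa2 in 17. Ndufb10 was the one that fell, from 131 to 145 TPM in Control to 111 to 126 TPM in WT bleomycin (log2 fold change -0.23, SE 0.06, edgeR adjusted p = 0.0065). Ndufv1 and Ndufs1, core subunits of the arm that takes electrons from NADH, were not called, with log2 fold changes of -0.13 and -0.09.

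The 4 subunits of complex II, which has no mitochondrially encoded part, divided. Sdha, the flavoprotein that oxidizes succinate, was lower in WT bleomycin, with 120, 122, 118, 112 and 105.1 TPM against 132, 126, 123 and 137 TPM in Control and 131, 138, 123 and 132 TPM in CB1R KO bleomycin. All 5 wild-type bleomycin libraries lay below all Control and all knockout libraries. Its log2 fold change from Control was -0.22 (SE 0.05, edgeR adjusted p = 0.0030) in wild-type mice and -0.09 (SE 0.06, edgeR adjusted p = 0.237) in knockout mice, and the difference between the bleomycin groups did not pass the test (0.13, SE 0.05, edgeR adjusted p = 0.213).

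Sdhd, a membrane anchor of the same complex, went the other way. It stood at 82.4, 78.8, 75.4 and 79.4 TPM in Control, at 108, 100.1, 101, 111 and 98.4 TPM in WT bleomycin, and at 94.1, 94.1, 104.6 and 108 TPM in CB1R KO bleomycin. Bleomycin libraries of both genotypes lay above all Control libraries, with log2 fold changes of 0.36 (SE 0.07, edgeR adjusted p = 0.0006) and 0.28 (SE 0.07, edgeR adjusted p = 0.0083). The other anchor, Sdhc, was also called higher (0.21, SE 0.07), and the iron-sulfur subunit Sdhb was not (0.21, SE 0.09, edgeR adjusted p = 0.0599).

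In complex III, 2 of 8 nuclear members were called higher and none lower in WT bleomycin, where 25.0% of all genes were called higher and 23.9% lower. Uqcrq, a small accessory subunit, had the lowest p of all members. It stood at 162, 153, 147 and 173 TPM in Control, at 229, 241, 251, 272 and 247 TPM in WT bleomycin, and at 231, 228, 240 and 205 TPM in CB1R KO bleomycin. Control lay below both bleomycin groups, and the log2 fold change was 0.59 (SE 0.07, edgeR adjusted p = 1.26e-05) in wild-type and 0.43 (SE 0.07, edgeR adjusted p = 0.0005) in knockout mice. Uqcr11 was the other (0.29, SE 0.07). The catalytic Rieske protein Uqcrfs1 (0.13, edgeR adjusted p = 0.31) and the core protein Uqcrc1 (0.18, edgeR adjusted p = 0.0816) were not called.

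Complex V was the most uniform, with a positive log2 fold change for 17 of 17 nuclear members, 10 of them called, none called lower, and a median of 0.33. Over all genes 25.0% were called higher and 23.9% lower. The called members were Atp5mpl (0.52, SE 0.15), Atp5e (0.46), Atp5j2 (0.42, SE 0.09), Atp5pb (0.41), Atp5l (0.38), Atp5o (0.34), Atp5md (0.34), Atp5k (0.33), Atp5g3 (0.29) and Atp5g1 (0.26). The calls of Atp5g3 and Atp5md passed in 15 of 28 alternatives each. Atp5g1 and Atp5g3 encode the same mature ring protein, subunit c. The catalytic subunits were not among them, with log2 fold changes of 0.01 for Atp5a1 and 0.07 for Atp5b, the most abundant nuclear member of the complex after Atp5e.

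In CB1R KO bleomycin against Control, 24 members were called higher and 5 lower, where 35.4% of all genes were called, 19.0% higher and 16.3% lower. The nuclear members gave 24 higher and 3 lower of 84, with a median of 0.20. By complex, 6 of 37 members of complex I, 2 of 4 of complex II, 3 of 8 of complex III, 6 of 18 of complex IV and 7 of 17 of complex V were called higher. Ndufa13, Ndufc2 and Ndufs8, among those higher, passed in 12, 14 and 15 of 28 alternatives. Those lower were Ndufb10, Cox4i2, Ndufa4l2, mt-Nd6 and mt-Nd4l. Genotype and treatment both differ between these groups. Without library 11 there were 17 higher and 10 lower, where 28.9% of all genes were called, 16.5% higher and 12.4% lower, and the nuclear median was 0.13. The total of 29 fell to 15 without Control 24, 17 without Control 21 and 19 without CB1R KO bleomycin 10.

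**Figure D3:**
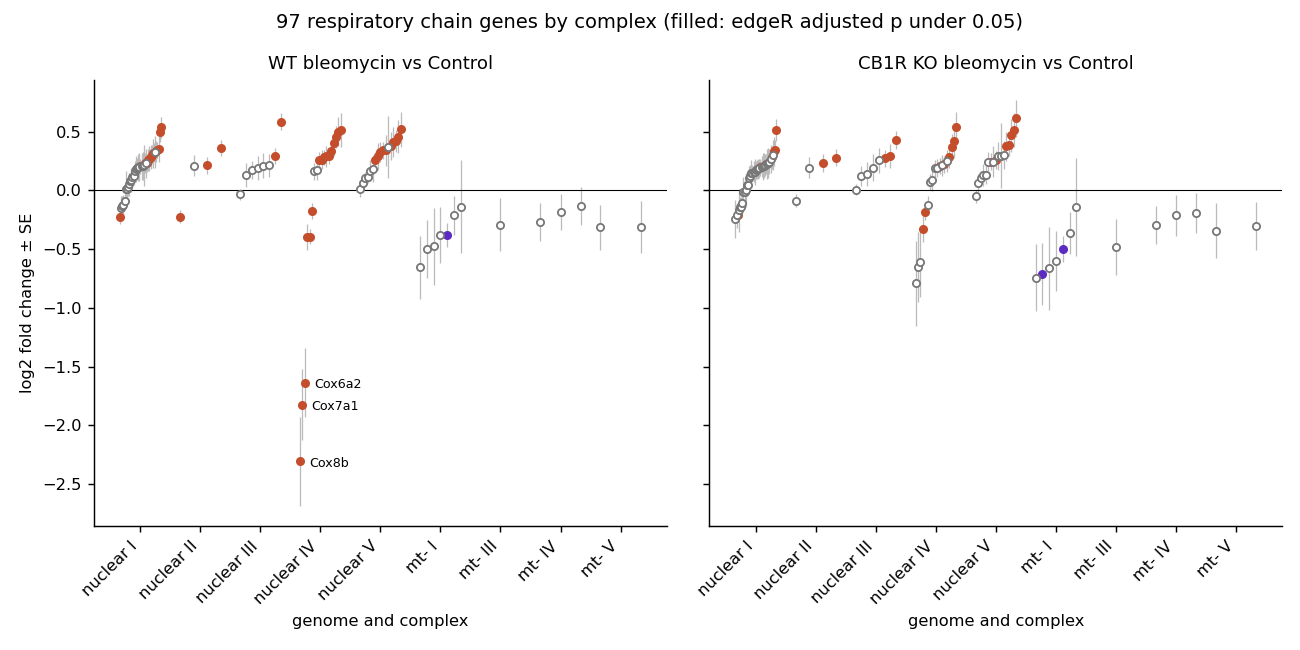
Log2 fold change ± SE (y axis) of the 97 members tested, grouped by genome and complex (x axis), for WT bleomycin against Control (left) and CB1R KO bleomycin against Control (right). Filled points passed edgeR's adjusted p of 0.05, most nuclear points lie above 0 and the 13 mt- points below it, and Cox8b (-2.31), Cox7a1 (-1.82) and Cox6a2 (-1.64) lie far below the rest in the left panel.

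Complex IV held both the members that rose and those with the largest decreases. Of 18 nuclear members tested, 10 were called higher and 6 lower in WT bleomycin than in Control, where 25.0% and 23.9% of all genes were. Higher were Cox6b2 (log2 fold change 0.51, SE 0.14), Cox5a (0.50, SE 0.12), Cox7b (0.45, SE 0.09), Cox6b1 (0.40, SE 0.11), Cox5b (0.33), Cox6a1 (0.29), Cox7a2 (0.29), Cox8a (0.28), Cox6c (0.26) and Cox7c (0.26). Lower were Cox8b, Cox7a1 and Cox6a2, the forms of subunits 8, 7a and 6a used in heart and skeletal muscle. Also lower were Cox4i2, the form of subunit 4 enriched in lung and controlled by oxygen, and Ndufa4l2, a paralog of Ndufa4 induced by hypoxia. Each of these 5 has a widely expressed partner, and that partner was called higher or not called. The last was Cox7a2l (-0.18, edgeR adjusted p = 0.0482), whose call passed in 17 of 28 alternatives.

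Cox8b stood at 40.3, 20.6, 21.6 and 56.7 TPM in Control libraries 3, 21, 24 and 26. It stood at 11.4, 7.54, 7.26, 3.16 and 6.31 TPM in WT bleomycin libraries 4, 2, 5, 4-B2 and 7. In CB1R KO bleomycin libraries 8 to 11 it stood at 18.6, 31.5, 13.8 and 18.2 TPM. The wild-type bleomycin libraries lay below all others, and the knockout libraries overlapped Control. The log2 fold change was -2.31 (SE 0.38, edgeR adjusted p = 0.0002) for WT bleomycin against Control, 1.52 (SE 0.38, edgeR adjusted p = 0.0702) for CB1R KO bleomycin against WT bleomycin and -0.79 (SE 0.36, edgeR adjusted p = 0.10) for CB1R KO bleomycin against Control.

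Cox7a1 followed the same order, with 31.7, 24.6, 28.3 and 54.2 TPM in Control, 16.5, 5.69, 10.0, 10.3 and 7.37 TPM in WT bleomycin, and 23.5, 29.1, 15.8 and 23.5 TPM in CB1R KO bleomycin. Its log2 fold changes were -1.82 (SE 0.30, edgeR adjusted p = 0.0002), 1.21 (SE 0.31, edgeR adjusted p = 0.0702) and -0.61 (SE 0.30, edgeR adjusted p = 0.125) in the same comparisons. Control did not overlap WT bleomycin, and 1 knockout library, number 10, fell inside the wild-type bleomycin range.

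Cox6a2 stood at 47.9, 35.6, 33.7 and 58.9 TPM in Control, at 23.0, 11.1, 20.5, 6.74 and 11.1 TPM in WT bleomycin, and at 28.3, 39.9, 27.2 and 22.1 TPM in CB1R KO bleomycin, with log2 fold changes of -1.64 (SE 0.29, edgeR adjusted p = 0.0003), 0.98 (SE 0.29, edgeR adjusted p = 0.118) and -0.65 (SE 0.30, edgeR adjusted p = 0.0991). Cox4i2 was more abundant than these in every library and moved less, with 116, 103, 103 and 108 TPM in Control, 93.7, 81.1, 87.2, 75.3 and 80.2 TPM in WT bleomycin, and 97.5, 97.9, 99.5 and 96.9 TPM in CB1R KO bleomycin. The 3 groups did not overlap for Cox4i2, and its log2 fold changes were -0.39 (SE 0.07, edgeR adjusted p = 0.0002), 0.21 (SE 0.07, edgeR adjusted p = 0.133) and -0.18 (SE 0.07, edgeR adjusted p = 0.0479), the last of which passed in 7 of 28 alternatives. Ndufa4l2 was lower than Control in both bleomycin groups, by -0.40 (SE 0.11, edgeR adjusted p = 0.0074) and -0.32 (SE 0.11, edgeR adjusted p = 0.0378), and differed by 0.07 (SE 0.11, edgeR adjusted p = 0.773) between them. The call in the knockout group passed in 16 of 28 alternatives.

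The balance of isoforms shifted accordingly. Cox8b stood at 9.16% ± 4.39 of the TPM of Cox8a in Control (SD, n = 4), at 1.54% ± 0.67 in WT bleomycin (n = 5) and at 5.02% ± 1.81 in CB1R KO bleomycin (n = 4). Cox7a1 relative to Cox7a2 went from 23.6% ± 8.6 to 5.47% ± 2.28 and 13.2% ± 3.3, and Cox6a2 relative to Cox6a1 from 10.5% ± 3.0 to 2.81% ± 1.45 and 5.78% ± 1.80. Cox4i2 relative to Cox4i1 went from 21.1% ± 1.3 to 14.4% ± 2.2 and 17.5% ± 1.4, and Ndufa4l2 relative to Ndufa4 from 16.1% ± 1.1 to 10.9% ± 1.8 and 11.2% ± 1.6. The subunit c genes kept their balance, with Atp5g1 at 43.5%, 42.7% and 42.3% of Atp5g3. Ratios of members are descriptions and were not tested.

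Genes of striated muscle moved with the 3 muscle isoforms. Cardiac muscle extends along the pulmonary veins of the mouse. The 14 markers of cardiac and striated muscle, among them Myh6 and Actc1, summed to 754 to 1948 TPM in Control, 149 to 560 TPM in WT bleomycin and 534 to 979 TPM in CB1R KO bleomycin. Of the 13 tested, 13 were called lower in WT bleomycin than in Control, where 23.9% of all genes were, with a median log2 fold change of -1.95. Between the bleomycin groups 13 of 13 were higher in CB1R KO, with a median of 1.01 and none called, 9 of them at an unadjusted p under 0.05, where 17.0% of all genes were. Of 7 adipocyte markers tested, 3 were called lower in WT bleomycin, with a median of -1.50, and their median between the bleomycin groups was 1.41. None of the markers of either list was at 0 in every library. The part of these cell types in the isoform values was not tested.

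**Figure D4:**
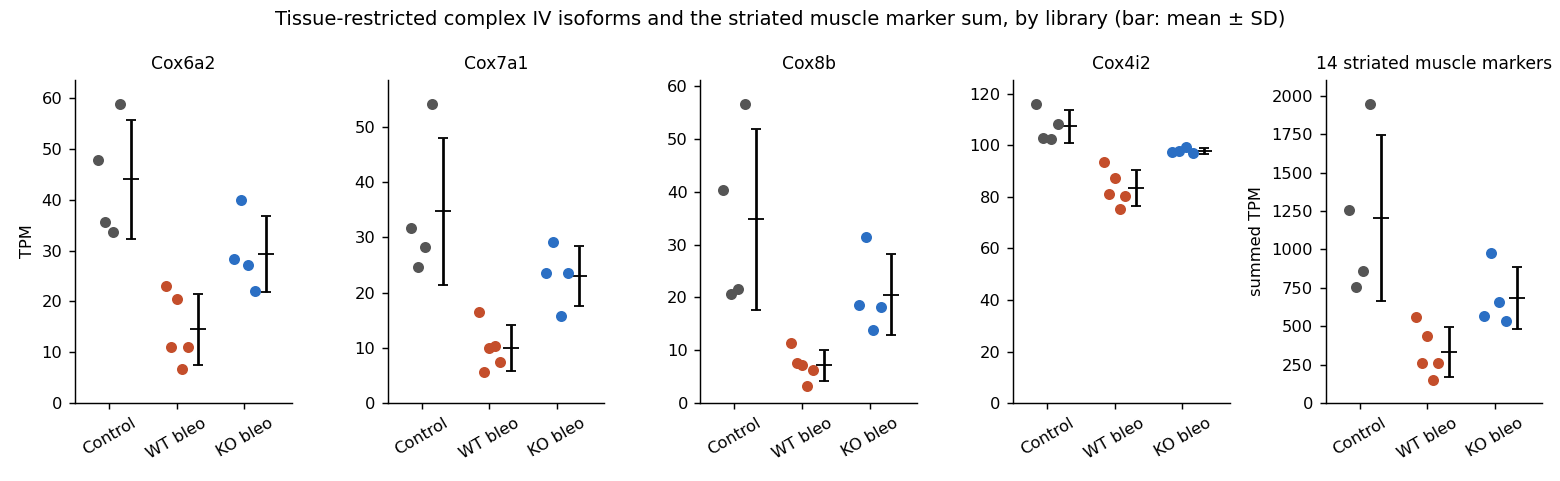
TPM (y axis) of Cox6a2, Cox7a1, Cox8b and Cox4i2 and the summed TPM of 14 striated muscle markers in each library, by group (x axis, WT bleo and KO bleo for the bleomycin groups), with bars for the mean ± SD. In the first 4 panels WT bleomycin lies below Control in every library, and the marker sum spans 149 to 560 TPM in WT bleomycin against 754 to 1948 TPM in Control.

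The promoters of Cox8b and Cox7a1 hold fewer CpG dinucleotides than those of their partners. The window from 250 bases before to 50 bases after the start, as given by RefSeq on GRCm38.p6, is shown for the Cox8 and Cox7a pairs, whose isoforms had the largest fold changes among members. Of the 87 nuclear members, 70 matched an entry. Among them the window held a median of 19 CpG dinucleotides (2 to 43), against 7 over the 27025 genes with an entry. Cox8b had the fewest of the members, 2, and Cox7a1 held 7, while their partners Cox8a and Cox7a2 held 19 and 20. Cox7b, which was called higher, held 5. The Cox8b window (chr7:140900397-140900696, minus strand) holds TATAAA, in capitals, a letter run found on either strand in 15.7% of all windows and in 8 of the 70. It begins at base 255 of the window, after the annotated start. The Cox8a window (chr19:7217567-7217866, minus strand) holds ACTTCCGG at 2 places, in capitals, the reverse complement of CCGGAAGT, the core bound by ETS factors, found in 4.31% of all windows and in 5 of the 70. Cox7a1 (chr7:30183921-30184220, plus strand) and Cox7a2 (chr9:79759804-79760103, minus strand) hold none of the motifs searched.
Cox8b: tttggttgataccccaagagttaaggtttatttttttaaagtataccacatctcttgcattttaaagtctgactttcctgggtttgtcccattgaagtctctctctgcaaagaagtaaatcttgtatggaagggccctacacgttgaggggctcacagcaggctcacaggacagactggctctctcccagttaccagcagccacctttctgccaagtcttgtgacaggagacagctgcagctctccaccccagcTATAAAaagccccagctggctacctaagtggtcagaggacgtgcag
Cox8a: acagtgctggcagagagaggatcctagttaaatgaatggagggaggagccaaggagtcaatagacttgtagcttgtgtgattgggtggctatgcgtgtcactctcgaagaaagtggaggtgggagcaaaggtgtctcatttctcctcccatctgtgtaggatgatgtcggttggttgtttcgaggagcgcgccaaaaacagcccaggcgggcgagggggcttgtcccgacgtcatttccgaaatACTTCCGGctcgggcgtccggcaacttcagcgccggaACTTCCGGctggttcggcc
Cox7a1: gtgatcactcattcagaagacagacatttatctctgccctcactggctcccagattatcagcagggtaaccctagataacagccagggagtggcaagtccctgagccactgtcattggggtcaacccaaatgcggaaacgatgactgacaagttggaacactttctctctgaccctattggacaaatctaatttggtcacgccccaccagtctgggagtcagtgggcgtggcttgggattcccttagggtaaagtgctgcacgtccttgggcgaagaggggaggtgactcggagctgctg
Cox7a2: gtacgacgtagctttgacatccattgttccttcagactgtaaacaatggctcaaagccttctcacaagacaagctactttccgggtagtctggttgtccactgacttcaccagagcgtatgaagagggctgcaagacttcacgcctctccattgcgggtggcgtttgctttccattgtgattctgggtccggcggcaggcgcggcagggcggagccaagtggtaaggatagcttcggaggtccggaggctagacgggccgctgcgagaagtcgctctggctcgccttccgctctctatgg

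The letters bound by NRF1, a factor known for driving nuclear genes of the respiratory chain, were searched in the member windows. The NRF1 core GCGCATGC, on either strand, was in 3.05% of all windows and in 10 of the 70 member windows, or 14.3%. For YY1 (AAGATGGC) the values were 3.19% and 14.3%, and for estrogen-related receptors (TGACCTTG) 1.76% and 5.71%. Of the 10 members with the NRF1 core, Atp5g2, Ndufa6, Sdhb and Uqcrc1 were not called in WT bleomycin against Control. Atp5k, Atp5l, Cox6a1, Ndufa8, Ndufa11 and Uqcr11 were called higher, where 25.0% of all genes were. Ndufa11 (chr17:56717512-56717811, plus strand) and Uqcr11 (chr10:80406772-80407071, minus strand) were picked because they were called higher in both bleomycin groups. Ndufa11 rose by 0.50 and 0.34 on the log2 scale in wild-type and knockout mice, and Uqcr11 by 0.29 and 0.27. Both are printed with the motif letters in capitals. In Ndufa11 2 copies of the motif overlap, and Uqcr11 holds CCGGAAGT as well. A run of letters in a window is a description and was not tied to any change.
Ndufa11: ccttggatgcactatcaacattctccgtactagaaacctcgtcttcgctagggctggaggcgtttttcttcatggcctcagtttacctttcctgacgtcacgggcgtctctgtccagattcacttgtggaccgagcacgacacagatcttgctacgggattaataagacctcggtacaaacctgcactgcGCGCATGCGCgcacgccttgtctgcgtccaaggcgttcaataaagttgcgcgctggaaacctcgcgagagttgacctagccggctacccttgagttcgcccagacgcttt
Uqcr11: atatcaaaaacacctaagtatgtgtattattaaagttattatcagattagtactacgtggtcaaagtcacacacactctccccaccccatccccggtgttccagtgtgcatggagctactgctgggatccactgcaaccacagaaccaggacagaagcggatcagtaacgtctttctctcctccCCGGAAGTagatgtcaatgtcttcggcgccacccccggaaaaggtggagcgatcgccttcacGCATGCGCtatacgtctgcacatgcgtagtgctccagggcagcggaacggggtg

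The comparison of CB1R KO with WT bleomycin asks how loss of cannabinoid receptor 1 bears on these genes in PF. No member passed the test between CB1R KO and WT bleomycin in edgeR, against a background of 0.979% of all genes, 0.359% higher and 0.62% lower, with 11 of 97 members at an unadjusted p under 0.05, where 17.0% of all genes were. DESeq2 called 4 members with all libraries, Cox8b, Cox7a1, Cox6a2 and Cox8a, where 4.23% of all genes were called, and 3 when fitted on both bleomycin groups alone. In edgeR, Cox8b and Cox7a1 were called when CB1R KO bleomycin 10 was left out, and Cox7a1 when WT bleomycin 4 was. The lowest p in edgeR belonged to Cox8b, Cox7a1 and Cox6a2, higher in the knockout, and on the lower side to Cox8a (log2 fold change -0.21, edgeR adjusted p = 0.119), Atp5j (-0.15, edgeR adjusted p = 0.173) and Ndufb4 (-0.33, edgeR adjusted p = 0.243).

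In CPM the libraries of both bleomycin groups did not overlap for Cox8b, Cox6a2, Cox4i2 and Sdha, higher in the knockout, nor for Cox8a and Atp5j, lower, although on the TPM scale Cox6a2 of CB1R KO bleomycin 11 (22.1) was just below WT bleomycin 4 (23.0). Over all genes 2.5% did not overlap on the higher side and 3.1% on the lower. The approximate 95% intervals of the differences ran from 0.77 to 2.26 for Cox8b, 0.61 to 1.81 for Cox7a1, 0.41 to 1.56 for Cox6a2 and 0.08 to 0.34 for Cox4i2 on the log2 scale, before any adjustment for the number of genes.

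For the mt- genes the direction between the bleomycin groups turned on library 11. With it, 11 of 13 mt- genes had a negative log2 fold change, with a median of -0.11. Without it, 12 of 13 were positive, with a median of 0.12, and none was called, where 0.0194% of all genes were called. mt-Nd2, for example, differed by -0.09 (approximate 95% interval -0.62 to 0.44) with library 11 and by 0.21 (SE 0.09, edgeR adjusted p = 0.232) without it. WT bleomycin 5, the lowest of its group for 13 of 13 mt- genes, lowered the WT bleomycin level in both of these fits. Apart from WT bleomycin 5 and library 11, mt-Nd1 stood at 1920 to 2206 CPM in WT bleomycin and 1901 to 2072 CPM in CB1R KO bleomycin. mt-Nd2 stood at 1170 to 1344 CPM and 1286 to 1444 CPM in the same libraries. The nuclear members were negative in 53 of 84 with library 11 and in 72 of 84 without it, with medians of -0.02 and -0.09, and the CPM of library 11 lay above those of the other knockout libraries for 57 of 84 nuclear members.

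The genes that build, copy and regulate the chain did not move as a block. Of 14 assembly factors of complex I, none was called in any of the 3 comparisons by edgeR, with 1 at an unadjusted p under 0.05 in each. Of all genes, 48.9% were called in WT bleomycin against Control, 25.0% higher and 23.9% lower. In CB1R KO bleomycin 35.4% were called against Control and 0.979% against WT bleomycin, where 17.0% had an unadjusted p under 0.05. Of 13 assembly factors of complexes II, III and V, Uqcc2 (log2 fold change 0.55, SE 0.08) and Ttc19 (0.30), which act on complex III, were higher in WT bleomycin than in Control, and Bcs1l (-0.28), which inserts the Rieske protein, was lower. Of 21 assembly factors of complex IV, Higd2a (0.29) and Sco2 (0.98, SE 0.36), a copper chaperone, were higher. Medians of these lists lay between 0.02 and 0.08.

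Genes that transcribe, copy and stabilize mitochondrial RNA and DNA gave 2 higher and 5 lower of 25 in WT bleomycin against Control, with a median of -0.12. Over all genes 25.0% were called higher and 23.9% lower. Polg, the mitochondrial DNA polymerase, fell by 0.59 on the log2 scale (SE 0.11, edgeR adjusted p = 0.0004), with Tfb2m, Mterf1a, Mterf3 and Mterf4 also lower, and Slirp, which binds and stabilizes mitochondrial mRNA, rose by 0.38 (SE 0.10, edgeR adjusted p = 0.0053) with Pnpt1 (0.31). Tfam, which packages mitochondrial DNA, was at -0.03 (edgeR adjusted p = 0.83), and the RNA polymerase Polrmt at -0.31 (SE 0.13, edgeR adjusted p = 0.0587).

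Of 10 transcriptional regulators of the nuclear subunits, 6 were called lower in WT bleomycin and 1 higher, where 23.9% and 25.0% of all genes were. Lower were Ppara (-1.10, SE 0.23), Esrrg (-0.71, SE 0.17), the coactivator Ppargc1a (-0.41, SE 0.15), Nrf1 (-0.27, SE 0.06), Gabpa (-0.17) and Yy1 (-0.15), while the related coactivator Pprc1 was higher (0.70, SE 0.09, edgeR adjusted p = 2.65e-05). In CB1R KO bleomycin against Control, Pprc1 (0.43) was higher and Esrrg (-0.58), Nrf1 (-0.19) and Yy1 (-0.15) were lower, where 19.0% of all genes were called higher and 16.3% lower. A relation between these regulators and the members was not tested.

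In WT bleomycin against Control, 25.0% of all genes were called higher and 23.9% lower. Of 14 citric acid cycle genes, Idh2 (-0.21), Ogdh (-0.15) and Suclg2 (-0.24) were lower and none was higher. Among 10 electron carriers and inner membrane transporters tested, cytochrome c (Cycs, 0.25, SE 0.09), the phosphate carrier Slc25a3 (0.24), the ADP/ATP carrier Slc25a5 (0.42, SE 0.07) and Ucp2 (0.39, SE 0.15) were higher, and Ucp3 (-0.82, SE 0.22) and Nnt (-0.40, SE 0.14) were lower. Of 8 outer membrane genes, Vdac2 (0.30), Vdac3, Tomm22, Tomm40 and Tomm70a (0.25) were higher, with a median of 0.23. Between CB1R KO and WT bleomycin edgeR called none of the genes of these lists, where 0.979% of all genes were called. From 1 to 3 genes of each list had an unadjusted p under 0.05, where 17.0% of all genes had.

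Markers of other cells shifted in the same lungs, where 25.0% of all genes were called higher and 23.9% lower after bleomycin in wild-type mice. In WT bleomycin against Control, 6 of 6 markers of dividing cells were called higher (median log2 fold change 2.72, summed level 14.2 to 21.8 TPM in Control and 92.9 to 147 TPM in WT bleomycin), 5 of 8 markers of monocyte-derived macrophages were called higher (749 to 845 TPM against 2954 to 3511 TPM), and of 8 markers of lung epithelium 6 were called lower and 1, Sftpd, higher (0.30). Pericytes and vascular smooth muscle gave 4 higher and 3 lower of 10 markers, T, B and plasma cells 1 higher and 3 lower of 7, alveolar macrophages 3 lower of 7, and ciliated cells 1 lower of 6. Their part in the values of the respiratory chain genes was not tested.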

How the data were processed

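Lung RNA-seq libraries from Control (4 libraries), WT bleomycin (5) and CB1R KO bleomycin (4) mice were used. The authors pseudoaligned reads with kallisto to the GRCm39 transcriptome and deposited estimated counts and TPM, added up per gene from its protein-coding transcripts. The kallisto version is not given in the sources used here. Of the deposited estimated counts, 64.8% were not whole numbers (tolerance 0.001), and all were rounded before testing. The TPM table held 1 column of no listed sample, which was not used.

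Genes passing edgeR's filterByExpr were tested with edgeR 4.0.16 (R 4.3.3; TMM factors, quasi-likelihood F test, 1 coefficient per group, 13 libraries together), with Benjamini-Hochberg adjustment over all 15315 genes. The SE is the absolute log2 fold change divided by the square root of F. Levels are CPM of the TMM-adjusted library total or the deposited TPM values. Whether all libraries are separate animals, 4 and 4-B2 among them, is not given, so that p-values measure the spread between these libraries. The steps were checked on simulated counts.

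Members and gene lists were chosen with earlier results of these data known. Named genes were the mt- genes, paired isoforms, core subunits, the 6 members with the lowest p in each direction against Control, the 3 in each direction between the bleomycin groups, members not tested, and from each pathway list the gene with the lowest p in each direction with a few fixed factors. Other genes are named to complete a count, or were chosen after their values were seen. Motifs were searched on both strands with fixed letters. Alternatives used DESeq2 1.42.0 on counts, limma 3.58.1 on log2(TPM + 1) and log2(TPM + 0.1), other normalizations and filters, thinning of library 11, label style as a term, and leaving out each library. Leaving out WT bleomycin 5 with CB1R KO bleomycin 11, and both with Control 21, was added after their mt- values were seen. The result for 1 named gene is not reported here.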

Additional observations from a re-analysis of the deposited data

Results flagged for a closer look

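Of 72 sets of values, each holding 1 gene or share in 1 group of 4 or 5 libraries, 21 had 1 library far from the others by Dixon's criterion. Chance gives this in about 1 in 20 independent sets. These sets share libraries and are not independent, and the unusual mt- share of library 11 was known beforehand. The count is therefore a description and not a test. In CB1R KO bleomycin 11 the share of counts in mt- genes was 1.37%, against 2.78% to 3.02% in the other knockout libraries. The mt- genes set apart in that library were mt-Co1 (4734 CPM against 8549 to 9005 in the others), mt-Co3 (1352 CPM), mt-Atp6 (1111 CPM), mt-Cytb (1063 CPM), mt-Nd1 (980 CPM), mt-Nd5 (589 CPM), mt-Nd4 (472 CPM), mt-Nd2 (361 CPM), mt-Atp8 (181 CPM) and mt-Nd4l (103 CPM against 329 to 373).

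In WT bleomycin 5 the mt- share was 2.15%, against 2.75% to 2.93% in the other wild-type bleomycin libraries. The genes set apart there were mt-Co1 (7269 CPM against 8501 to 9039), mt-Nd4 (1928 CPM), mt-Co2 (1435 CPM against 2523 to 2818), mt-Atp6 (1305 CPM), mt-Nd4l (317 CPM), mt-Nd3 (201 CPM) and mt-Atp8 (195 CPM). In Control 21, mt-Nd3 stood at 51.6 CPM against 350 to 409 CPM. Ndufa11 was the nuclear gene set apart, at 44.9 CPM in WT bleomycin 7 against 40.3 to 41.5 CPM in the others of its group. The causes were not tested.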

How the results depend on the processing

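Over 28 alternatives, the number of members called in WT bleomycin against Control stayed within 1.5 times the reported 47, from 38 to 66, the highest without library 11. In CB1R KO bleomycin against Control (29 called), limma on log2(TPM + 1) gave 47, with a pseudocount of 0.1 also 47, and after rescaling TPM without mt- genes 45, while leaving out 1 library gave 15 (without Control 24) to 42 (without CB1R KO bleomycin 8), with 17 without Control 21 and 19 without CB1R KO bleomycin 10. Between the bleomycin groups (0 called), DESeq2 gave 4 on all libraries and 3 on 2 groups, and leaving out 1 library gave 0 to 2, with 1 without WT bleomycin 4 and 2 without CB1R KO bleomycin 10. Label style as a term (3 of 13 labels are written with capitals) gave 42 calls in WT bleomycin and 33 in CB1R KO bleomycin against Control, and 0 between the bleomycin groups. Whether WT bleomycin 4 and 4-B2 share a mouse is not given, and without one or the other 46 and 40 members were called in WT bleomycin against Control. The causes were not tested.

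The ratio of a complex's share to Control moved beyond its spread when TPM replaced counts, to 1.17 for complex I, 1.13 for complex II, 1.23 for complex III and 1.24 for complex V in WT bleomycin, and to 1.20 for complex II in CB1R KO bleomycin. Without library 11 the same change moved all 5 complexes and the mt- genes in CB1R KO bleomycin, from 1.05 to 1.12 for complex I, 1.01 to 1.15 for complex II, 1.084 to 1.19 for complex III, 1.06 to 1.13 for complex IV, 1.081 to 1.19 for complex V and 0.887 to 0.943 for the mt- genes. The median log2 fold change of members ranged from 0.156 to 0.235 in WT bleomycin and 0.097 to 0.241 in CB1R KO bleomycin against Control, and from -0.077 to 0.008 between the bleomycin groups. Of 45 called results on named genes, 45 kept their sign and 31 stayed past the threshold in every alternative, and 34 others passed in at least 1. mt-Nd4l in CB1R KO bleomycin against Control was lost in 19 of 26 alternatives. No paired analysis was made because the labels give no pairing between the groups. Leaving out CB1R KO bleomycin 11 added mt- calls against Control in both comparisons, and the mt- genes called with that library stayed called. Between the bleomycin groups no mt- gene was called with or without it, and the difference that these libraries could detect was not tested.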
